A study of Mus musculus with 2 samples.

Results

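The apolipoprotein and VLDL assembly genes described here are Apoa1, Apoa2, Apoa4, Apob, Apoc1, Apoe, Apom, Apoh, Mttp and Tm6sf2. They were chosen by gene symbol, with earlier results of these data known. All 10 of 10 were measured, among 16342 genes measured of 20652 genes named on the array. Liver RNA came from male mice, 3 per group, pooled within each group and labelled with Cy3, and each pool was hybridised to 1 Agilent Whole Mouse Genome array, so that 1 array stands for fasting and 1 for feeding. The fasting group went without food for 16 h in one label and for 14 to 16 h overnight in another. The feeding group is labelled both as fed ad libitum and as given food after the fast. Both groups are untreated male mice. The study's methods give the C57BL/6 J strain and an age range in weeks, that of young adults, without naming the animals of these arrays. With 1 array per group the difference between fasting and feeding has no replicate check, no test and no p-value, and the spread between mice is not known.

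The liver secretes triglyceride as VLDL, a particle built around a single molecule of apolipoprotein B, onto which the microsomal triglyceride transfer protein (Mttp) loads lipid in the endoplasmic reticulum. Tm6sf2 is a membrane protein that takes part in the lipidation of these particles, and the small exchangeable apolipoproteins of the A, C and E classes sit on the surface of VLDL, HDL and their remnants and direct their metabolism. Fasted liver receives fatty acids from adipose tissue, while fed liver makes them from carbohydrate, and VLDL export takes triglyceride from either source.

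The mRNAs of these genes were close to level between fasting and feeding. Of the 10 members, 0 differed by 2-fold and 0 by 1.5-fold between the arrays. Of all genes measured, 21.1% passed 1.5-fold. At 2-fold 7.89% passed, 3.27% with a higher and 4.62% with a lower signal on the feeding array. The split of the 2-fold calls, 535 higher and 755 lower, moved with the scaling: it was 711 and 648 with scaling by the median, 388 and 978 with none, 421 and 930 with scaling by the brightest 10% of genes, and 876 and 759 with no lower bound for dim probes. Among the 3251 genes at least as bright as the dimmest member, 5.91% were past 2-fold. Over the settings tried, 1 member passed 1.5-fold in 1 of them, Tm6sf2 at 0.60 on the log2 scale with scaling by the median. The median change of the members, feeding minus fasting, was -0.04 on the log2 scale, with a range from -0.35 (Apoa4) to 0.38 (Tm6sf2). In the 3251 bright genes the median was 0.02, with quartiles of -0.22 and 0.25. Changes within 0.25 on the log2 scale were found for 8 of the 10 members and for 52.5% of the bright genes. With 10 members at these rates, a count of 0 past 2-fold is near the background. The counts of 0 at both thresholds are read as a description of the members only.

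Proximal promoters are shown for 5 members, of which Apoa1 and Apoa4 lie in one gene cluster, Apob and Mttp build the particle, and Apoh holds the letters of a forkhead motif close to its start. Each is the 100 bases before the transcription start, 5′ to 3′ on the gene's strand, from RefSeq on the build GRCm38.p6, with the letters of searched motifs in capitals.
Apob, chr12:7977577-7977676, plus strand: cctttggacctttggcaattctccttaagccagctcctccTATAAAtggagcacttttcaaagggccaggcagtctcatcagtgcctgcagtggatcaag
Mttp, chr3:138143419-138143518, minus strand: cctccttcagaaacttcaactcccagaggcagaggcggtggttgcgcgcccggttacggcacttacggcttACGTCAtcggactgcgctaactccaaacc
Apoa1, chr9:46228530-46228629, plus strand: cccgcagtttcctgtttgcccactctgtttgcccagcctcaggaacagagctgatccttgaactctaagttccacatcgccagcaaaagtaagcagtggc
Apoa4, chr9:46240744-46240843, plus strand: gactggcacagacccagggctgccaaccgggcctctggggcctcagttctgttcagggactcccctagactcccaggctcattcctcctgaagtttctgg
Apoh, chr11:108395197-108395296, plus strand: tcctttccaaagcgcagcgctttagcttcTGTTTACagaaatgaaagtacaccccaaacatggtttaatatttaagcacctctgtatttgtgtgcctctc

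The promoter table, with 250 bases before and 50 after each start, held 11 windows of 8 members, and Apoc1 and Tm6sf2 were not among them. On either strand, TATAAA (the TATA box) was present in windows of Apoa2, Apob and Apoe, against 13.6% of all 32851 windows. In Apob it lay at -60 to -55, counted from -1 at the base before the start. The forkhead letters GTAAACA were found in windows of Apoa2, Apoe and Apoh, against 3.65% of all windows, and in Apoh they read TGTTTAC on the printed strand at -71 to -65. TGACGT, part of a cAMP response element, was found in Mttp alone among the members (-29 to -24, printed as ACGTCA), against 7.51% of all windows. GTTAAT, part of an HNF1 site, was found in Apoe alone, against 7.10%. CAAAGTCCA, CAAAGGTCA (both forms of an HNF4 element) and TTGCAAT (a C/EBP element) were found in 0 member windows, against 0.475%, 0.478% and 2.22% of all windows. These are matches of letters and not binding sites.

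Values below are the processed signal, the intensity of a probe after background subtraction, followed by the log2 change between the arrays before normalization and after quantile normalization, always feeding minus fasting. For genes other than the members a single change is given, after quantile normalization. Each signal is the mean over the spots of a probe, taken on the log2 scale and turned back into intensity. Of the members, 8 had 1 probe while Apoa2 and Apob had 2. Repeated spots of 64 probes in the same range of signal gave an SD of 0.06 for the log2 difference of a single spot, which covers the measurement on the array and nothing of the mice. Levels of different probes are not compared, because each probe has its own brightness.

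Apob, the structural protein of VLDL, was level. Its bright probe (A_52_P441070, transcript NM_009693) read 43137 upon fasting and 42598 upon feeding, a change of -0.02 before and 0.03 after normalization, less than the SD of a spot. The second Apob probe (A_55_P1957198) was dim, at 141.6 upon fasting and 162.5 upon feeding, and gave 0.20 before and 0.41 after normalization. The 2 probes thus differed by 0.38 on the log2 scale, and the reported value is that of the bright probe. Mttp, whose product lipidates apolipoprotein B, read 15251 upon fasting and 13808 upon feeding (A_55_P1970299, designed to NM_001163457). Its change of -0.14 before and -0.13 after normalization was 2.18 times the SD of a spot, and 71.4% of the bright genes changed by more in either direction. With scaling by the median it was 0.09.

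Tm6sf2, the other lipidation factor, had the highest change of the members, feeding minus fasting. Its probe (A_55_P2049122, NM_181540) read 7286 on the fasting array and 9378 on the feeding array, a change of 0.36 before and 0.38 after normalization, or 1.30-fold. This was 6.60 times the SD of a spot, while 29.7% of the bright genes changed by more in either direction and 15.2% had a larger increase. Tm6sf2 was above 0 under every setting tried, from 0.31 to 0.60. In gene order on chromosome 8, the 3 nearest genes on either side were Gatad2a (0.42), Mau2 (-0.23) and Sugp1 (0.45), and Hapln4 (1.41), Ncan (0.21) and Rfxank (0.60). Hapln4 and Ncan were dim, between 49.1 and 112.5 on both arrays.

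The class A apolipoproteins are the main proteins of HDL and also ride on triglyceride-rich particles. Among the members of this class, Apoa1, Apoa2 and Apoa4, the lowest change, feeding minus fasting, was that of Apoa4. Its probe (A_51_P327491, NM_007468) read 3518 upon fasting and 2697 upon feeding, a change of -0.38 before and -0.35 after normalization, or 1.28-fold lower. This was 6.10 times the SD of a spot, and 33.0% of the bright genes changed by more in either direction. Apoa4 kept its sign under every scaling tried, from -0.38 to -0.15.

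Apoa1, the main structural protein of HDL, was printed 10 times on each array (A_51_P408082, NM_009692). The spots ranged from 25159 to 28983 upon fasting, with a mean of 27116, and from 23860 to 27001 upon feeding, with a mean of 25216, so the ranges overlapped. After normalization the feeding spot was lower at 10 of 10 positions, by differences between -0.18 and -0.03, with a mean of -0.07 and an SD of 0.04. The direction of so small a difference turned on the scaling, since the value was 0.13 when each array was scaled by its median. Apoa2, the other abundant HDL protein, had 2 probes for the transcript NM_013474. The brighter (A_55_P2178553) read 175074 upon fasting and 162615 upon feeding, a change of -0.11 before normalization. It ranked number 2 in signal on both arrays, so that quantile normalization set its change to 0. The dimmer (A_55_P1966035) read 87434 and 78293, which gave -0.16 before and -0.07 after normalization.

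Apoa1, Apoa4 and Apoa5 lie together on chromosome 9. Apoa5, an activator of plasma triglyceride lipolysis, read 4600 upon fasting and 1545 upon feeding, a change of -1.53 that exceeded 2-fold. The gene flanking the cluster beyond Apoa1, the salt-inducible kinase gene Sik3, changed by -0.91 (6754 to 3521), and Zpr1, beyond Apoa5, by -0.04 (2223 to 2106). Not every gene of the cluster is reported here, so these values do not describe the cluster as a whole.

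Apoc1 and Apoe are neighbours on chromosome 7. Apoc1, a small surface protein that limits the uptake and lipolysis of particles, read 119537 upon fasting and 112428 upon feeding (A_55_P1975370, NM_007469), a change of -0.09 before and -0.01 after normalization. Apoe, the ligand by which remnants are taken up, was printed 10 times (A_51_P171999, NM_009696), and 1 fasting spot was left out because the scanner software had marked it as an outlier. The remaining spots ranged from 132354 to 163422 upon fasting, with a mean of 144488, and all 10 spots from 122468 to 154874 upon feeding, with a mean of 135676. The ranges overlapped, the difference was -0.05 after normalization with an SD of 0.05 over 9 pairs of spots, and 8 of the 9 were lower upon feeding, whereas scaling by the median gave 0.14. Their nearest measured neighbours on either side were Apoc4 (0.12, 13926 to 15023) and Tomm40, a mitochondrial import receptor gene (0.63, 5009 to 7550). Nectin2, the next gene beyond Tomm40, changed by 0.17 (1504 to 1626).

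Apoe is also made by macrophages, so the markers of Kupffer cells and macrophages are given beside it. Of 11 measured, 10 were lower upon feeding by any size (8 with scaling by the median), against 45.2% of all genes. Their median was -0.46, and their summed signal was 110042 upon fasting and 79771 upon feeding. The brightest of them were Csf1r (-0.52) and C1qc (-0.47). Their part in the Apoe value was not tested. In pooled tissue RNA, fewer cells of a type and less RNA per cell cannot be told apart.

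Apom carries sphingosine-1-phosphate on HDL. It read 18379 upon fasting and 15841 upon feeding (A_52_P150236, NM_018816), a change of -0.21 before and -0.20 after normalization, which 55.6% of the bright genes exceeded in either direction, and of 0.02 with scaling by the median. Apoh, a phospholipid-binding plasma glycoprotein, read 87211 and 79704 (A_51_P342387, NM_013475), a change of -0.13 before and -0.03 after normalization. After quantile normalization the Apom change was 3.52 times the SD of a spot, and that of Apoh was below it. With another background correction the order was reversed, at -0.12 for Apom and -0.21 for Apoh.

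**Figure D1:**
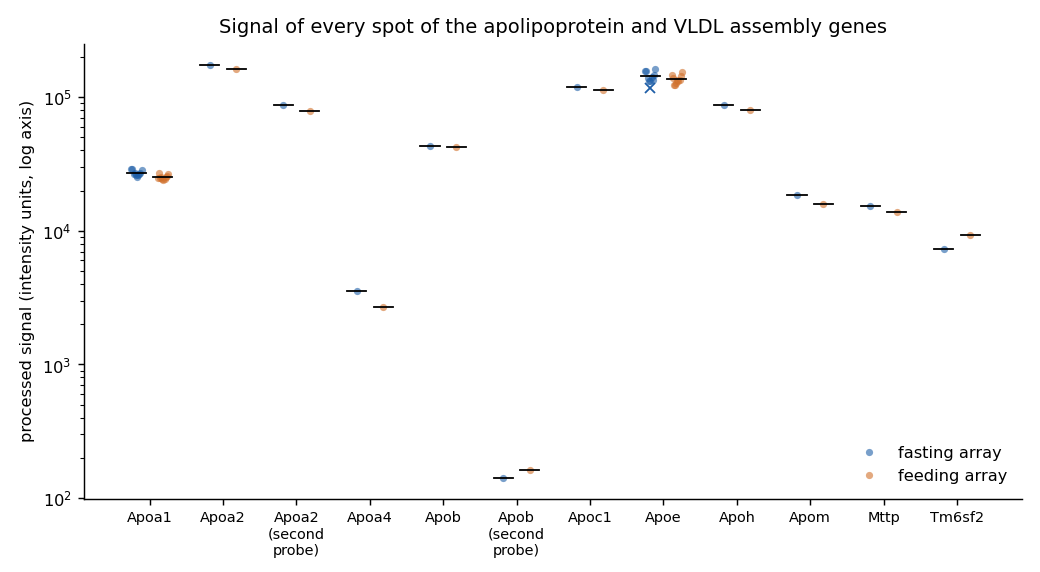
Processed signal (intensity units, log axis) of every spot of the 12 member probes on the fasting array (blue) and the feeding array (orange), with a black line at the mean of each probe and a cross at the 1 Apoe spot left out as an outlier. Probes of one gene should be compared between arrays only; the pairs lie close together, with Apoa4 lower (3518 to 2697) and Tm6sf2 higher (7286 to 9378) upon feeding.

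Of the 10 members, 7 were lower, 2 were higher and 1 was at 0 upon feeding, by any size. By comparison, 47.6% of the bright genes were lower. Before normalization 9 of the 10 were lower, and the count was 4 when the arrays were scaled by the 75th percentile and 1 when they were scaled by the median. Only Apoa4 and Tm6sf2 kept their sign under every setting tried, and the other 8 changed sign in at least 1, so no direction is given for them.

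**Figure D2:**
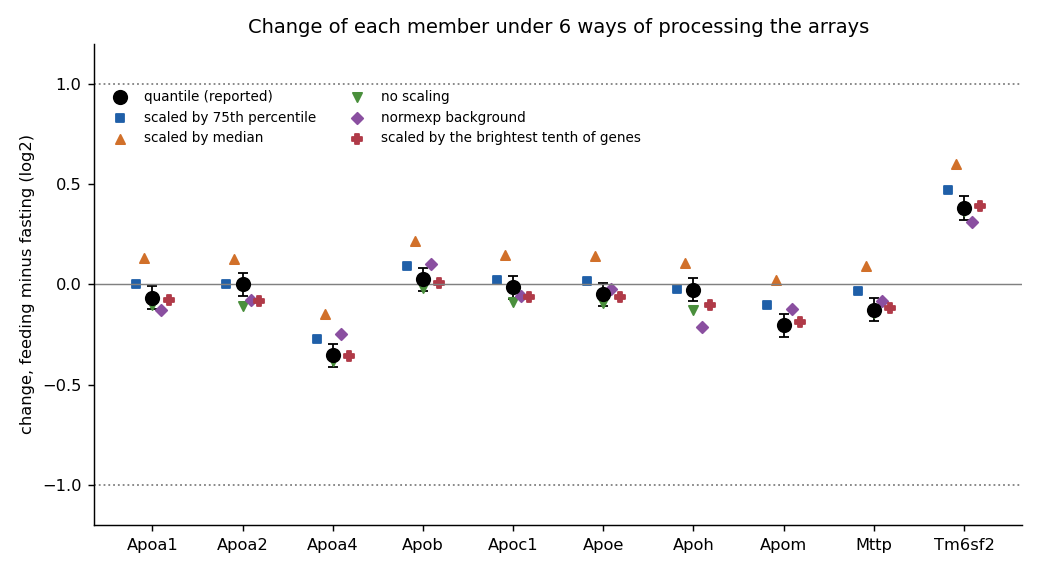
Log2 change, feeding minus fasting, of each member under quantile normalization (black, with bars of 1 SD of a single-spot difference, 0.06) and under 5 other ways of processing the arrays, with dotted lines at 2-fold. All points lie inside 2-fold, Apoa4 is below 0 and Tm6sf2 above 0 throughout, and the other members straddle 0 or lie near it.

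Because several members are among the brightest probes, compression of high signals was examined. The highest median pixel signal of a member spot was 156763 upon fasting and 147260 upon feeding, 20.1% and 18.9% of the scanner's saturation value of 778212, and 0 spots of either array were marked as saturated. In the brightest 10% of genes, which held 9 of the 10 members (all but Apoa4), 6.61% of genes were past 2-fold, with an interquartile range of 0.40 for the log2 change. In the brightest 100 genes, which held Apoa2, Apoc1, Apoe and Apoh, the interquartile range was 0.13 and 1 gene was past 2-fold. This was the metallothionein gene Mt2 at -1.09 (131384 to 58705), followed by Tat, a tyrosine-degrading enzyme induced in fasting, at -0.97 (106618 to 51968). On the fasting array both read above Apoh, and Mt2 above Apoc1, but neither reached the signal of Apoe or of the brighter Apoa2 probe, and the spread at the top was narrower. Whether this narrowing comes from the range of the signal or from the genes themselves was not tested. Quantile normalization also moved the brightest members towards 0, since the raw median change of the brightest 100 genes was -0.08 and its normalized counterpart was 0.00.

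**Figure D3:**
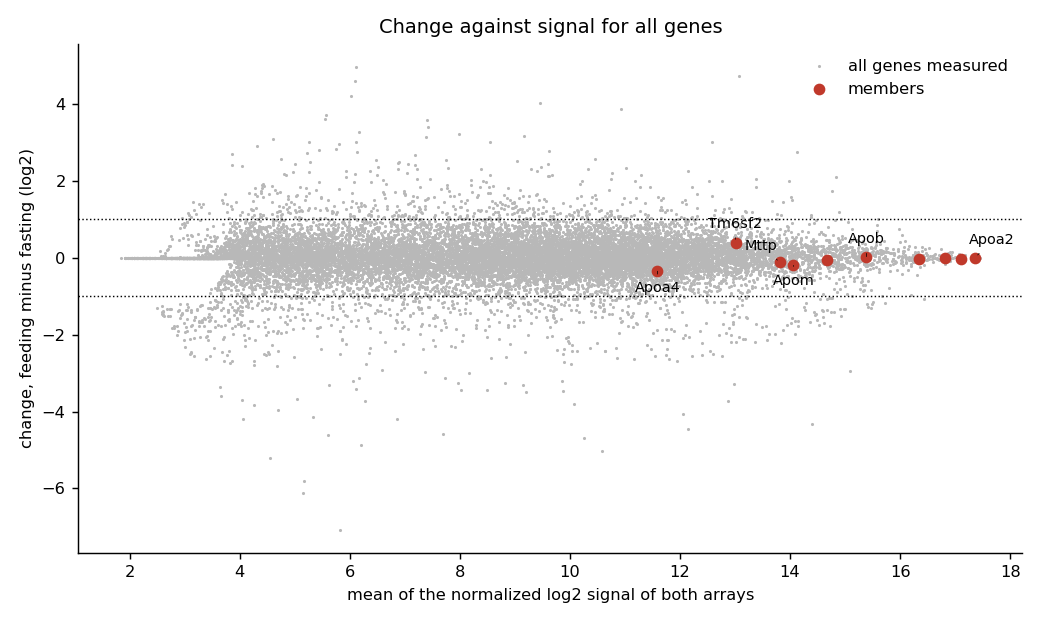
Log2 change, feeding minus fasting, against the mean normalized log2 signal for the 16342 genes measured (grey) and the 10 members (red), with dotted lines at 2-fold. The members lie in the upper part of the signal range and inside 2-fold, and the grey cloud narrows at its bright end, where 4 members are among the brightest 100 genes.

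Genes around the members were taken from 5 lists of the same pathway and read at 2-fold against the 7.89% of all genes. Among other apolipoproteins and apolipoprotein B editing genes, 13 of 15 were measured, 0 were past 2-fold higher and 2 were past it lower, Apoa5 and A1cf, an RNA-binding partner of the editing enzyme. A1cf read 72.1 upon fasting and 17.7 upon feeding, and its change was -1.84 after quantile normalization but -0.45 with another background correction. The median of this list was -0.02.

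For VLDL lipidation and export all 30 genes were measured, and 1 was past 2-fold in each direction, with a median of 0.10. Sec23b, a component of the COPII coat that carries cargo out of the endoplasmic reticulum, read 2020 upon fasting and 4005 upon feeding (1.02). Dgat1, which makes triglyceride in the same compartment, read 1487 and 664 (-1.07). Both lay at the threshold, with ranges over the settings of 0.95 to 1.22 for Sec23b and -1.16 to -0.93 for Dgat1.

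For particle uptake and lipolysis 16 of 17 genes were measured, with 2 past 2-fold in each direction and a median of -0.02. The largest were Angptl8 (4.72) and Angptl4 (-3.29), secreted regulators of lipoprotein lipase. Lipg, the endothelial lipase, was dim (28.6 to 8.47), and its -1.60 became -0.16 with another background correction. For HDL formation and remodelling 10 of 11 genes were measured, 0 were past 2-fold, and 9 were lower by some amount, against 45.2% of all genes, with a median of -0.24 (-0.29 to -0.05 over the settings). With scaling by the median, 6 of the 10 were lower. The largest changes there were those of Abca1, the exporter that lipidates Apoa1, at 0.61, and Npc2, a cholesterol-binding lysosomal protein, at -0.50.

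All 21 transcription factors of apolipoprotein genes were measured, with a median of 0.33, 1 past 2-fold higher and 3 lower. These were Srebf1, the lipogenic factor (3.15), and the coactivator Ppargc1a (-3.26), Cebpb (-1.37) and the forkhead factor Foxo1 (-1.12, from -1.16 to -0.92 over the settings). After quantile normalization the factors ran from -3.26 to 3.15 and the members from -0.35 to 0.38.

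**Figure D4:**
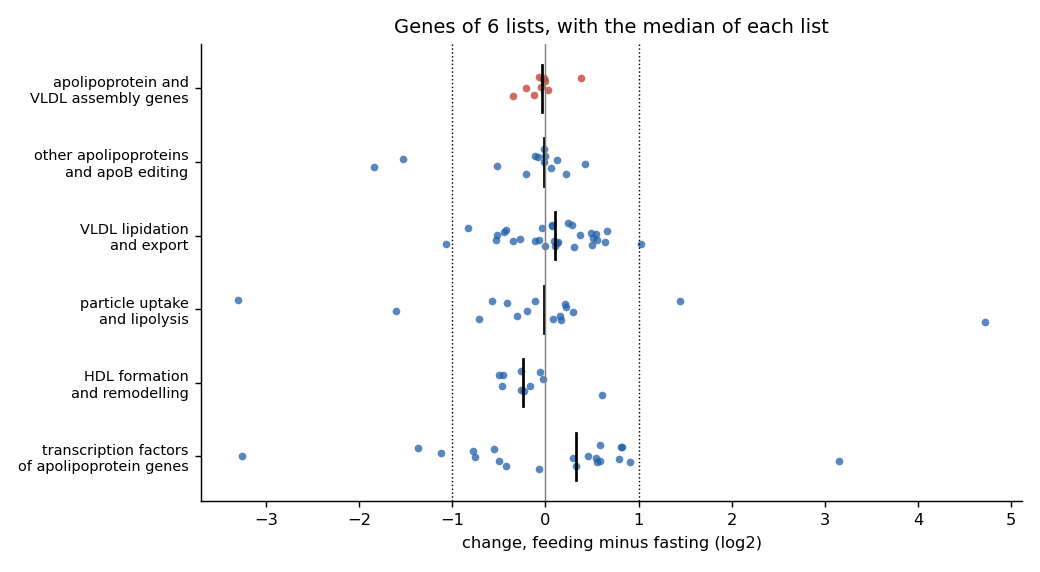
Log2 change, feeding minus fasting, of each measured gene of the 10 members (red) and of 5 pathway lists (blue), with the median of each list as a black line and dotted lines at 2-fold. All members lie inside 2-fold, and the transcription factors reach from -3.26 (Ppargc1a) to 3.15 (Srebf1).

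The labelled tissue was checked against markers. Hepatocyte markers were bright on both arrays, with 11 of 12 measured and a median of -0.04. Alb read 159091 upon fasting and 141790 upon feeding (-0.07), while Serpina1a changed by 0.07. Not all of these markers were level, since their changes ran from -0.97 (Tat) to 0.11. By any size, 7 of the 11 were lower upon feeding (3 with scaling by the median), against 45.2% of all genes. Since Apoa4, Apob and Mttp are also intestinal genes, enterocyte markers were read as well, and of 6 measured Fabp2 alone was bright (12511 to 10564), whereas the sum of all 6 was 12606 and 10644. The homeobox gene Cdx2 and Cdh17 were not well above background on either array. Of endothelial markers 7 of 7 were lower by any size (6 with scaling by the median), against 45.2% of all genes, with summed signals of 38516 and 28927. Stellate cell markers had a median of -0.51, with sums of 55325 and 39091. The remaining lists had medians of 0.08 for cholangiocytes, -0.05 for pancreas, -0.02 for erythroid cells, -0.24 for lymphocytes and -0.03 for adipocytes. They held 4 to 7 measured genes each, some at a lower bound, so a median near 0 does not mean level genes. Changes ran from -0.46 to 2.11 for cholangiocytes, -2.70 to 1.35 for pancreas and -0.23 to 0.07 for erythroid cells. They ran from -0.49 to 0.54 for lymphocytes and -1.37 to 0.89 for adipocytes. The part of these lists in the members' values was not tested.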

How the data were processed

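Pooled total RNA was Cy3-labelled and hybridised by the authors to Agilent Whole Mouse Genome arrays, which were read with Agilent Feature Extraction 11.0.1.1. The deposited values are intensities per spot, background-subtracted (the processed signal) without any scaling across the pair. There were 44397 spots per array, with 1377 controls, and 63.1% (fasting) and 72.3% (feeding) of spots were well above background. The value table of the series holds the local background and was not used. After controls and outlier spots (123 and 98) had been removed, the log2 processed signals of the spots of each probe were averaged and quantile normalized between the arrays. Probes were named through RefSeq transcripts in the table of GRCm38.p6 (27218 of 39402 probes matched). The array design names mm9, so its probes are given no coordinates. A gene was represented by its brightest probe and measured if that probe was well above background on at least 1 array, with the value at a lower bound on the other array where it was not. The call was 2-fold, the threshold in the study's methods.

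The members and the lists (5 of pathways, 10 of markers: hepatocytes, enterocytes, Kupffer cells and macrophages, stellate cells, endothelium, cholangiocytes, pancreas, erythroid cells, lymphocytes and adipocytes) were chosen with earlier results of these data known. Named were all members, the genes of each pathway list past 2-fold or otherwise the 2 with the largest change, and the 2 brightest markers of a list where it bears on a result. Not every gene picked by the rule is reported here. Neighbours, Mt2 and Tat were chosen after their values were seen. Promoters came from RefSeq. As alternatives, arrays were scaled by the 75th percentile, by the median, or not at all, with further runs using a normexp background correction (offset 50, limma 3.58.1 in R 4.3.3), averaging all probes of a gene, a stricter filter on dim probes or none, no lower bound, and calls at 1.5-fold and 3-fold. Calling was tested on simulated data with changes past and short of 2-fold, which checks the fixed cut as coded and no result of these arrays. The number of arrays limits the precision.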

Additional observations from a re-analysis of the deposited data

How the results depend on the processing

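The count of members past 2-fold was 0 in each direction under all 9 alternatives that give member values, and 0 of 90 recomputed values passed it. The median change of the members was -0.04, and it moved to 0.13 when the arrays were scaled by the median and to -0.11 with no scaling, beyond the SD of a spot; the median of all genes was 0.09 and -0.06 under these settings. It lay within that SD under the other alternatives, including scaling by the brightest 10% of genes (-0.08), which was chosen after seeing the data. Of the 90 values, 60 lay within the SD of a spot of the reported one. Many of the 90 could not differ from it, so these counts are not a measure of robustness. All 10 members were well above background on both arrays, so the filters on dim probes and the lower bound left them unchanged. Averaging probes could change only Apoa2 and Apob. Averaging both Apob probes gave 0.22. The median of all genes was 0, and 0.03 with no lower bound for dim probes. Over all genes the normexp background gave 215 genes higher and 312 lower past 2-fold, against 535 and 755, and no filter on dim probes gave 836 and 1185. A threshold of 1.5-fold gave 1710 and 1736, and one of 3-fold 158 and 311. List medians changed sign between settings for other apolipoproteins (-0.08 to 0.16) and for uptake and lipolysis (-0.11 to 0.18). Scaling by the spike-in control spots was not run, since 34 (fasting) and 93 (feeding) of 320 such spots were well above background. The brightest spike-in was well above background at 30 and 32 of its 32 spots. Its median signal was 22.9 upon fasting and 77.6 upon feeding, so it was not level between the arrays. The median over all 320 spots went the other way, at 3.83 and 2.09. What these values mean for the scaling of the members was not tested. No paired analysis was possible because each group has 1 array, and no array can be left out. Signal over background limits the values of A1cf, Lipg and the second Apob probe.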
